A study of Mus musculus with 6 samples.

Results

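The neurotrophins Bdnf, Ntf3 and Ntf5 and the receptor genes Ntrk2, Ntrk3 and Ngfr were followed through CpG methylation in the dentate gyrus of mice in environmental enrichment (ENR) and in standard cages (STD). The members were all covered cytosines from 1 kb upstream of the gene start to the gene end, read along each gene's strand in GENCODE M21. They numbered 592 of the 890041 cytosines in the table. Bdnf held 178 of these sites, Ntrk2 134, Ntf3 93, Ntrk3 86, Ngfr 72 and Ntf5 29. Each of the 592 was a CpG in the reference sequence, and 93 also lay in another annotated gene at the Bdnf, Ntrk2 or Ntrk3 locus.

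Neurotrophins are secreted growth factors that keep neurons alive and adjust synapses to activity. BDNF, the product of Bdnf, binds the kinase receptor TrkB (Ntrk2), as does neurotrophin-4/5 (Ntf5), while neurotrophin-3 (Ntf3) binds mainly TrkC (Ntrk3). All of them also bind the p75 receptor (Ngfr). In the hippocampus BDNF is made by neurons from several alternative promoters, each with its own first exon spliced to 1 shared coding exon, and some of these promoters respond to neuronal activity.

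Micro-dissected dentate gyrus came from female C57BL/6JRj mice aged 4.5 months, with 3 mice in each group and 1 library per mouse. ENR mice had shared a large enclosure with tunnels and toys that were moved regularly, STD mice had lived in standard cages with fewer animals per cage, and the groups did not differ in strain, sex or age. Reduced representation bisulfite sequencing reads CpG-rich fragments cut at CCGG, and each value is the percent of reads in which a cytosine was methylated. The tissue is a mix of neurons and glia, so a level averages over cell types, and a change within a cell type and a change in the share of that type cannot be told apart. The table used here holds no expression values, so the labelled tissue was not checked against marker genes. Reads per site are not part of the table beyond the authors' minimum of 10, so no counting interval can be given. Over all sites the libraries averaged 21.3% to 24.3%, with STD 3 at 22.5% and ENR 3 at 21.3% as the lowest of their groups. At sites of 20% to 80% the gap was wider, with 43.6% in STD 3 and 37.6% in ENR 3 against 50.9% to 52.3% in the other 4 libraries.

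The sequences below are those to which the results return, from GRCm38 (mm10), plus strand, 5′ to 3′, with each measured CpG in capitals. The first is the stretch before the Bdnf start that had the most sites assigned to it. The next are the 2 blocks at the edge of the Bdnf promoter cluster, with groups that overlapped in edge 1 and not in edge 2, and the methylated Bdnf coding exon. The others are the Ntf3, Ntrk2 and Ntrk3 blocks with the lowest p-value in their gene.
Bdnf start 6, chr2:109693263-109693562: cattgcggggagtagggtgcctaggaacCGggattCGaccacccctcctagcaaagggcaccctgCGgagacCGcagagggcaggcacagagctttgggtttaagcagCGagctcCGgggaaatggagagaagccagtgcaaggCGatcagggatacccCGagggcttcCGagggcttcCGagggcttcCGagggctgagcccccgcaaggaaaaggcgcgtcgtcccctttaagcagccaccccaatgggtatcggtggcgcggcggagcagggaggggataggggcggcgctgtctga
Bdnf edge 1, chr2:109695209-109695312: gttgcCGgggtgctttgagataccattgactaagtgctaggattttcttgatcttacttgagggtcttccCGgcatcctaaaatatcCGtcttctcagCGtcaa
Bdnf edge 2, chr2:109695591-109695676: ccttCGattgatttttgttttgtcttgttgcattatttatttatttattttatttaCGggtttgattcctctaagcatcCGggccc
Bdnf coding exon, chr2:109723680-109723926: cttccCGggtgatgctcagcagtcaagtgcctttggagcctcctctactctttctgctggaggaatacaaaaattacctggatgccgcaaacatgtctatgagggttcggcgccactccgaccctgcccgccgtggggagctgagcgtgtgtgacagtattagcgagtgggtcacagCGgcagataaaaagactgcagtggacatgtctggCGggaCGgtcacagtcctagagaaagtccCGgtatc
Ntf3 intron, chr6:126105255-126105339: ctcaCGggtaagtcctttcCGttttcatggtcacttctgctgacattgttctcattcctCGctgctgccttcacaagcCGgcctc
Ntrk2 intron, chr13:58926620-58926707: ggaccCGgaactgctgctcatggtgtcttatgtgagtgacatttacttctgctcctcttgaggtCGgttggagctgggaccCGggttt
Ntrk3 intron, chr7:78603867-78604012: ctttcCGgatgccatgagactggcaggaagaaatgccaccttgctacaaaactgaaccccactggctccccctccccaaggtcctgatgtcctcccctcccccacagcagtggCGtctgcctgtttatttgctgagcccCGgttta
The Bdnf start 6 stretch held 22 CpGs, of which 11 were measured. It averaged 2.97% ± 1.43 (SD, n = 3) in STD and 1.02% ± 0.613 in ENR, and the groups overlapped, with STD 2 at 1.638% and ENR 1 at 1.645%. The coding stretch held 13 CpGs, of which 5 were measured.

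Averaged over all its sites, no gene differed between ENR and STD by more than its spread between mice. Over its covered sites Ntrk2 was the most methylated of the 6 genes and Bdnf and Ngfr the least, with Ntf3 and Ntrk3 at like levels between them. The share of sites within 1 kb of a transcription start ran from 32.3% in Ntf3 to 92.1% in Bdnf, with 38.1% in Ntrk2. Over 1 kb from starts, Bdnf averaged 42.1%, below only Ntrk2 at 49.2%, so the order of the genes depends on which sites were covered. The Bdnf means were 5.08%, 5.19% and 5.56% in STD and 5.59%, 4.71% and 5.09% in ENR. The groups overlapped and differed by -0.145 percentage points, ENR minus STD (two-sided exact permutation test over the 20 regroupings, p = 0.8). With 3 mice against 3 that test cannot give a p under 0.1.

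Ntf3 averaged 19.5%, 19.1% and 19.2% in STD and 20.3%, 17.6% and 16.6% in ENR, a difference of -1.08 points (exact permutation p = 0.4). The STD mice lay close together and ENR 1 was above them, with ENR 2 and ENR 3 below. Ntf5 averaged 15.6%, 17.05% and 11.4% in STD and 22.0%, 14.3% and 13.2% in ENR, a difference of 1.81 points (exact permutation p = 0.7). ENR 1 was the highest Ntf5 library, and without it the difference was -0.950 points.

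Among the receptors, Ntrk2 averaged 34.2%, 34.2% and 28.5% in STD and 32.3%, 33.0% and 24.2% in ENR, a difference of -2.48 points (exact permutation p = 0.5). The libraries STD 3 and ENR 3 were the lowest, as they were over the whole table, and without ENR 3 the difference was 0.344 points. Ntrk3 averaged 19.4%, 19.1% and 19.5% in STD and 18.5%, 20.9% and 15.3% in ENR, a difference of -1.10 points (exact permutation p = 0.7) that was 0.362 points without ENR 3. Ngfr averaged 4.81%, 5.55% and 4.16% in STD and 3.38%, 8.09% and 4.78% in ENR, a difference of 0.575 points (exact permutation p = 0.9) that was -0.764 points without ENR 2. The groups overlapped in all 3 receptor genes.

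**Figure D1:**
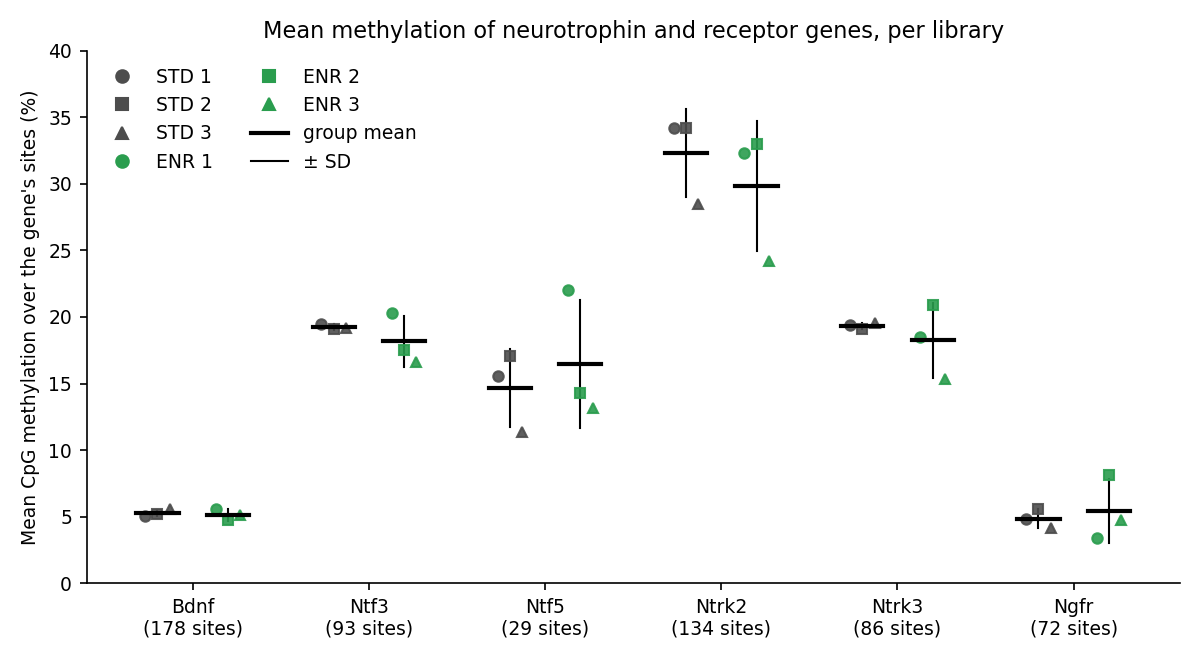
Mean CpG methylation (%) over the covered sites of each gene, with 1 point per library, a bar at the group mean and a line for ± SD (n = 3). Ntrk2 lies highest, at 24.2% to 34.2%, Bdnf and Ngfr lowest, and STD and ENR libraries overlap in every gene.

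In a limma fit on the gene means of all genes with at least 3 sites, the share of genes called at an adjusted p under 0.05 was 0.0% of 22934 tested. At an unadjusted p under 0.05 it was 3.86%, and the groups did not overlap in 5.42% of genes with ENR lower and in 3.04% with ENR higher. None of the 6 genes was called by limma, none reached an unadjusted limma p under 0.05, and none had groups without overlap. Over all genes the median difference was -0.192 points and 57.6% of genes were lower in ENR, and 4 of the 6 genes here were lower.

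Site by site, limma called 0 of the 428 member sites that varied, and the smallest adjusted limma p among them was 0.852. That was also the smallest over the whole table. Sites named below with unadjusted limma p-values from 0.036 to 0.29 shared it. The same call, an adjusted p under 0.05 with a difference over 25 points, was made at 0.0% of the 615152 sites that varied in the table. An unadjusted limma p under 0.05 was reached by 5 member sites, all lower in ENR, which is 1.17% against 2.68% over the table. Group means lay over 25 points apart at 10 member sites. Of these, 7 were lower in ENR, 1.18% of the 592 against 1.23% of all sites, and 3 were higher, 0.507% against 0.706%. The groups did not overlap at 15 sites with ENR lower, 2.53% against 2.34%, and at 8 with ENR higher, 1.35% against 1.65%. Each member share was thus near or below the share over the table.

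Sites at most 200 bp from their neighbour were joined into blocks, of which 52 held 3 or more sites and 51 varied. One of them, at the upstream end of Bdnf, reached beyond the window and held 2 member sites among 6. limma called 0 of the 51, as it did 0.0% of the 71381 blocks tested in the table, and 1 had an unadjusted limma p under 0.05, where the table had 4.0%. Groups did not overlap in 1 block with ENR lower, 1.92% against 5.33%, and in 2 with ENR higher, 3.85% against 3.45%. ENR was lower in 28 blocks and higher in 23.

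**Figure D2:**
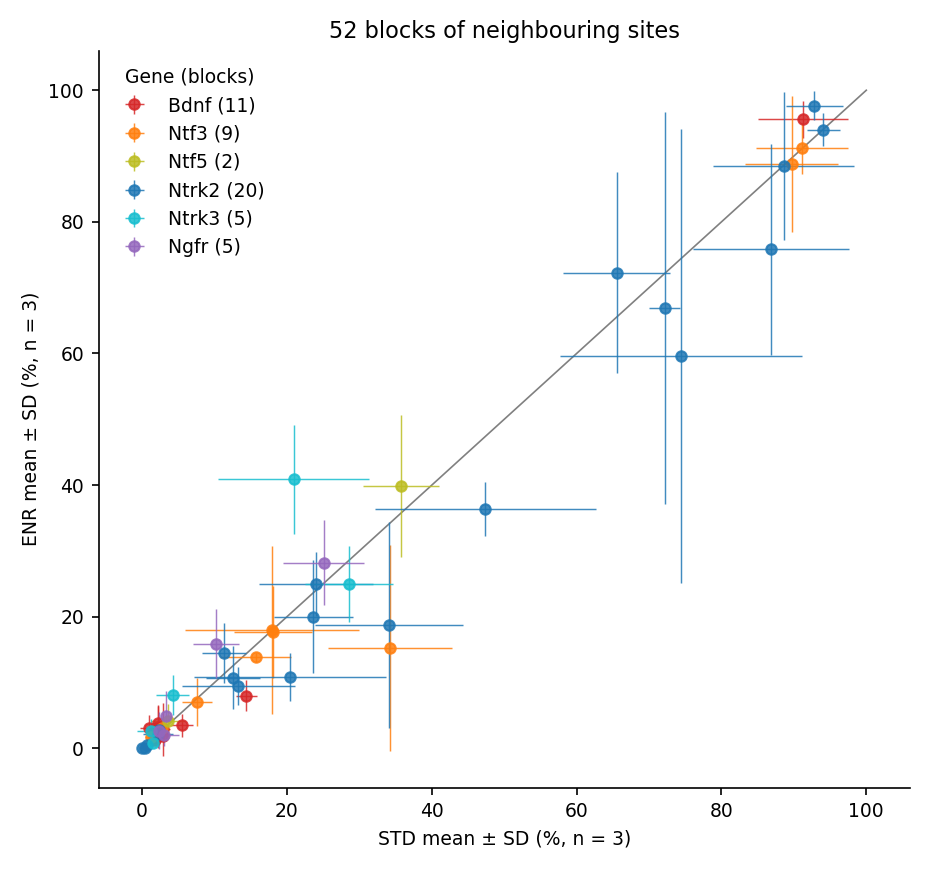
Mean methylation (%) of the 52 blocks in STD (horizontal axis) and ENR (vertical axis), coloured by gene, with SD over 3 mice as error bars and the line of equal levels in grey. Most blocks lie on the line within their SD, and the widest error bars belong to Ntrk2 blocks of intermediate level.

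The level of a site went with its distance from a transcription start of its gene. Within 1 kb of a start, 343 member sites averaged 2.69%, and the 249 others averaged 33.5%. The same split over the table, using the starts of every gene, gave 6.39% and 49.7%. Near starts the means ran from 1.56% in Ntrk2 and 2.05% in Bdnf to 4.53% in Ntf3 and 4.83% in Ntf5. Away from starts they ran from 5.77% in Ngfr to 42.1% in Bdnf and 49.2% in Ntrk2. Where sites were covered differed between the genes. Of the 44 distant sites of Ngfr, the p75 receptor gene, 24 and 11 lay in 2 blocks only 1352 and 2264 bp from its start, which averaged 2.52% and 2.53%, while its 2 farther blocks averaged 13.0% and 26.6%. Ntf3 had a like block of 27 sites around 1932 bp from a start, at 2.91%.

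**Figure D3:**
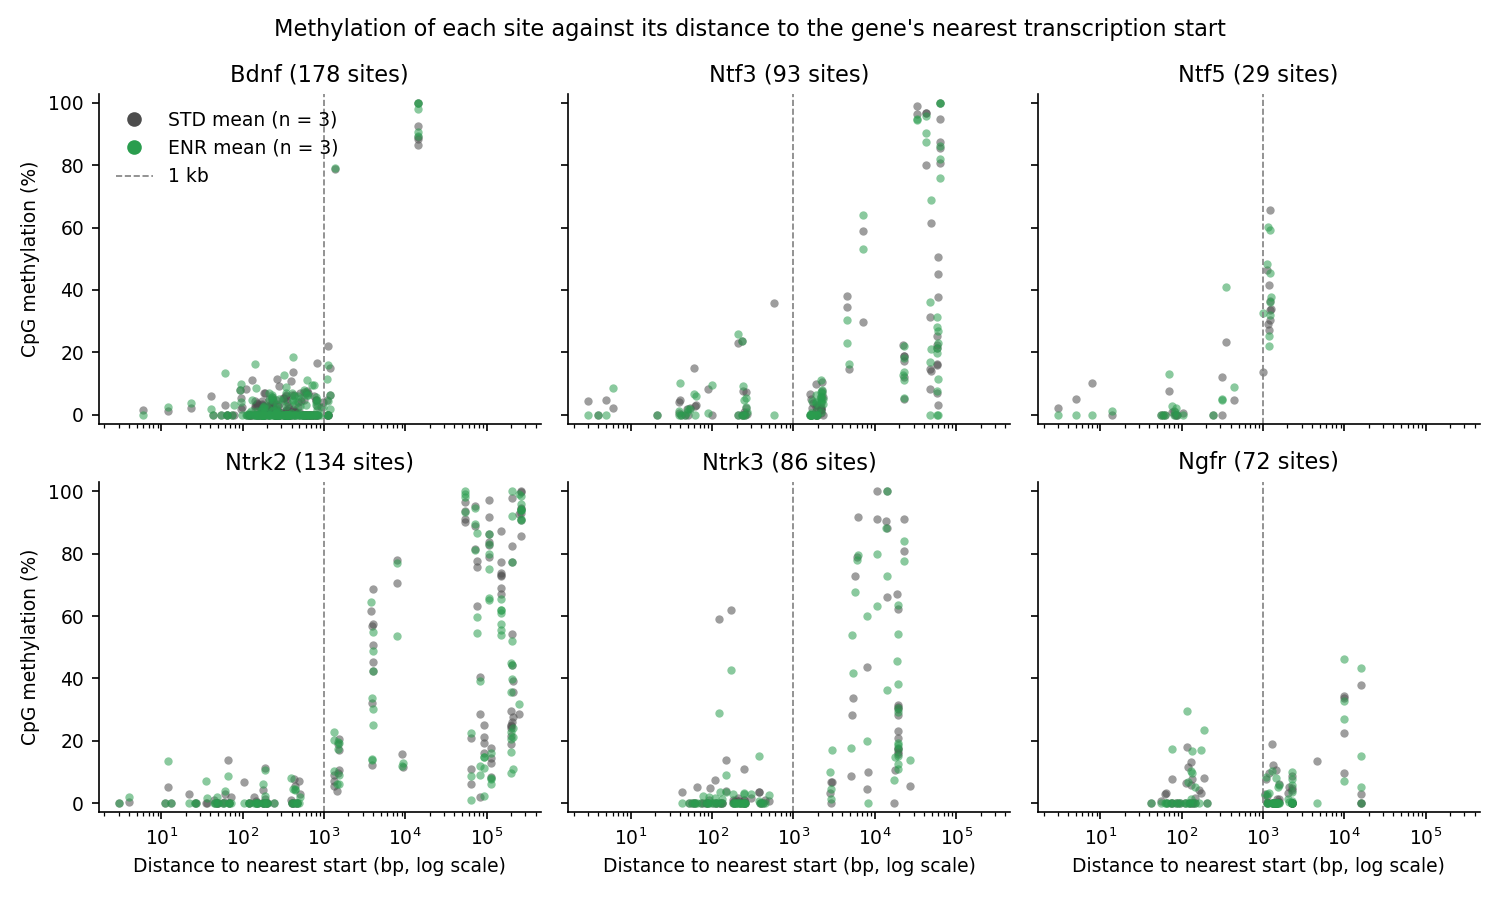
Methylation (%) of each site in STD and ENR (group means, n = 3) against its distance in bp from the nearest start of its gene on a log scale, in 1 panel per gene, with a dashed line at 1 kb. Sites near starts are mostly close to 0, distant sites of Bdnf, Ntf3, Ntrk2 and Ntrk3 spread up to 100%, and Ngfr sites stay at or under 40.6% as means of the 6 libraries.

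Coding sequence over 1 kb from a start was covered by 12 member sites and was highly methylated. It averaged 93.4% over 5 sites in Bdnf, 89.2% over 5 in Ntf3 and 82.1% over 2 in Ntrk3. The 12 sites averaged 89.8%, where the 36517 coding sites of the table over 1 kb from a start averaged 43.4% with a median site at 31.1%. In each gene the sites lay in a single block, so they are not independent. Distance was taken from the starts of its own gene for members and of every gene for the table. The level of these 12 sites in STD, 85.1%, 88.8% and 94.9%, overlapped that in ENR, 90.9%, 93.2% and 85.8%.

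Bdnf has 8 separate starts in GENCODE M21 once starts within 200 bp are joined, and 7 of them had covered sites within 1 kb. All 7 were nearly unmethylated in both groups. Start 1 (Bdnf-201, 13 sites) averaged 2.35% ± 0.999 in STD and 2.95% ± 2.55 in ENR, and start 2 (Bdnf-207, Bdnf-208 and Bdnf-210, 25 sites) 2.92% ± 0.477 and 1.94% ± 0.9935. Start 3 (Bdnf-206, 32 sites) averaged 1.65% ± 0.739 and 1.79% ± 0.811, and start 5 (Bdnf-211, 15 sites) 2.42% ± 0.839 and 2.10% ± 0.876. Starts 6 (Bdnf-205, 44 sites) and 7 (Bdnf-203 and Bdnf-204, 28 sites) averaged 1.75% ± 0.602 and 2.83% ± 0.538 in STD and 1.12% ± 0.317 and 2.60% ± 0.882 in ENR. The groups overlapped at these 6 starts, with exact permutation p-values from 0.3 to 0.9. The lowest Bdnf block, chr2:109693707-109694235 just past start 6, averaged 1.75% ± 0.264 in STD and 1.26% ± 0.618 in ENR.

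Start 4 (Bdnf-209, 7 sites, from 109692436) was the exception in order, though not in level. Its libraries read 1.63%, 0% and 1.43% in STD and 1.63%, 2.10% and 4.56% in ENR, so that every ENR mouse lay above every STD mouse, by the narrowest margin at STD 1 and ENR 1. The difference of 1.75 points had the smallest p the exact permutation test allows, 0.1, and without ENR 3 it was 0.848 points (exact permutation p = 0.4). No Bdnf site within 1 kb of a start averaged over 10.6%, and 64 of the 178 Bdnf sites read 0% in all 6 libraries. The eighth start (Bdnf-202, at 109709383) had 0 covered sites within 1 kb and was not measured.

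Levels were higher at the downstream edge of the Bdnf promoter cluster. Going away from start 7, the blocks averaged 2.97% around 347 bp, 4.48% around 811 bp and 11.2% around 1179 bp. The next covered site, at 109708029 in the intron ahead of the eighth start, averaged 78.9%, and the coding exon 93.4%. The coding block read 84.1%, 94.1% and 95.6% in STD and 98.8%, 94.4% and 93.6% in ENR, and the groups overlapped.

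The last block of that edge, chr2:109695596-109695671 in the edge 2 stretch, was the 1 member block with an unadjusted limma p under 0.05. It read 12.7%, 15.4% and 15.0% in STD and 5.31%, 9.24% and 9.53% in ENR. All 3 ENR mice lay below all 3 STD mice, and all 3 of its sites were lower in ENR. The difference of -6.34 points had a limma p of 0.018, an adjusted limma p of 1.0 and an exact permutation p of 0.1. Among 51 blocks, a share of 4.0% under that limit is the background, so 1 such block is not beyond it.

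In edge 1, the minus-strand cytosine at chr2:109695280 had the largest difference with ENR lower of any Bdnf site without overlap. It read 15.5%, 16.7% and 17.1% in STD and 8.54%, 4.65% and 1.25% in ENR, a difference of -11.6 points with an adjusted limma p of 0.852. The plus-strand cytosine of the same CpG averaged 4.83% in STD and 3.23% in ENR. Of its 4 neighbours within 100 bp, 1 was also lower in ENR. The largest difference with ENR higher and no overlap was at chr2:109677821, between start 3 and start 4, with 0% in all 3 STD mice and 4.41%, 1.299% and 6.78% in ENR. The other strand of that CpG averaged 4.80% in STD and 5.65% in ENR. Of the 8 neighbours of that site within 100 bp, 2 were also higher in ENR. The edge 1 stretch holds the letters CGTCA, the core of the cAMP response element, once on either strand, and that CpG, at 109695307, read 0% in all 6 libraries.

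**Figure D4:**
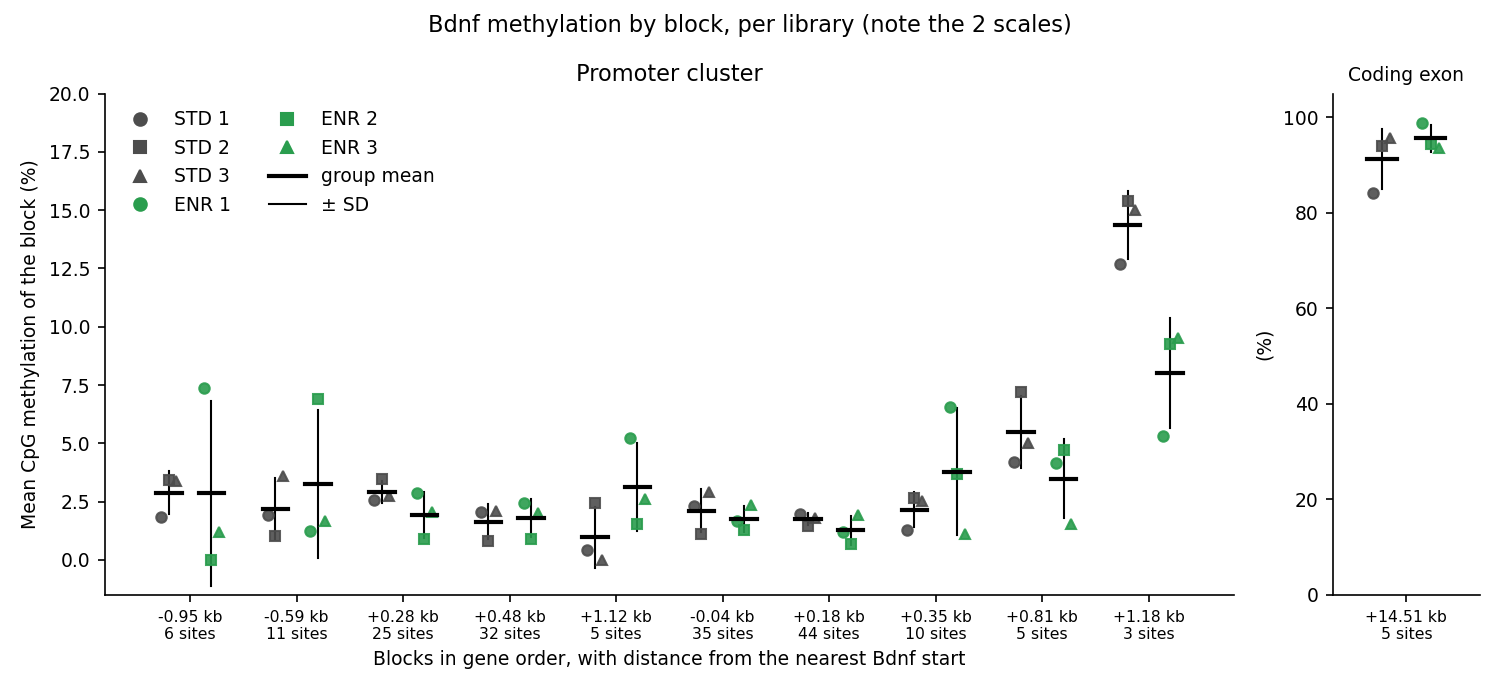
Mean methylation (%) of the 11 Bdnf blocks with 3 or more sites, in gene order and labelled with their distance from the nearest start, with 1 point per library, a bar at the group mean and a line for ± SD (n = 3). The promoter cluster (left) stays low until the last block, where STD reads 12.7% to 15.4% and ENR 5.31% to 9.53%, and the coding exon (right, on its own scale) is highly methylated in all libraries.

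Ntf3, which encodes neurotrophin-3, had low levels at its starts, a methylated coding exon, and intronic patches from low to high. The start at 126164960 averaged 1.43% over 16 sites, and the outer starts from 126166715 to 126166910 averaged 8.08% over 14 sites. One of the 14 outer sites, at 126166144, read 94.7%, 12.5% and 0% in STD and 0% in each ENR mouse, so the difference at that site rested on STD 1. The block of the other 13 sites averaged 7.32%. The coding block averaged 89.7% ± 6.48 in STD and 88.8% ± 10.3 in ENR. The highest block of 3 or more sites, at chr6:126122742-126122861 in the intron, averaged 91.1% ± 6.37 and 91.2% ± 3.87, with groups that overlapped.

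The Ntf3 site with the largest difference of any member site was chr6:126105260, the first CpG of the Ntf3 intron stretch. It read 34.9%, 62.1% and 55% in STD and 13.2%, 0% and 21.4% in ENR. Every ENR mouse lay below every STD mouse, by -39.1 points in the mean, with an unadjusted limma p of 0.036 and an adjusted limma p of 0.852. Its block of 4 CpGs read 24.6%, 37.1% and 40.9% in STD and 14.6%, 0% and 31.2% in ENR. All 4 sites were lower in ENR on average, but ENR 3 lay above STD 1, and the block difference of -18.9 points had an unadjusted limma p of 0.077 and an adjusted limma p of 1.0.

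In the opposite direction, Ntf3 chr6:126157748 read 20.5%, 30.9% and 37.8% in STD and 61.4%, 58.3% and 40% in ENR, higher by 23.5 points in the mean without overlap and with an adjusted limma p of 0.852. It had no covered neighbour within 100 bp. Of the 93 Ntf3 sites, groups did not overlap at 3 with ENR lower and at 2 with ENR higher, beside 2.34% and 1.65% of all sites of the table.

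Ntf5, which encodes neurotrophin-4/5, was covered in 2 blocks. The block over its starts, chr7:45413252-45413828, averaged 3.55% ± 2.39 in STD and 4.18% ± 2.50 in ENR. The block in the intron, chr7:45414894-45415149, averaged 35.8% ± 5.24 and 39.8% ± 10.8, with groups that overlapped in both blocks. Ntf5 had the highest share of intermediate sites of the 6 genes, 37.9% of its 29 at a mean of 20% to 80%, where the table had 14.6%, and 0 above 80%.

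The sites of the Ntf5 intron differed in both directions. Site chr7:45415084 read 40.7%, 40.9% and 43.3% in STD and 23.1%, 14.6% and 37.5% in ENR, lower in every ENR mouse, with a difference of -16.6 points and an adjusted limma p of 0.852. The other strand of that CpG averaged 27.1% in STD and 21.9% in ENR. The site 45415041 had a larger difference of 31.2 points, but STD 3 read 0% there and ENR 2, at 45.7%, lay below STD 1, at 47.6%.

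Ntrk2, the TrkB gene, carried the widest range of block means, from 0% to 95.2%. Its 51 sites near starts averaged 1.56%, and a block of 3 sites at chr13:58807454-58807514 read 0% in every library. The highest block, the Ntrk2 intron stretch, read 97.2%, 89.5% and 91.8% in STD and 95.7%, 100% and 97.2% in ENR, with an unadjusted limma p of 0.11 and an adjusted limma p of 1.0. That was also the lowest limma p among the Ntrk2 blocks, and the groups overlapped.

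TrkB is made as a full-length receptor with a kinase domain and as truncated forms without it, and 2 covered blocks lay in 3′ untranslated regions of Ntrk2. In that of a transcript ending inside the gene, chr13:58936201-58936406, the level was 12.6% ± 3.70 in STD and 10.7% ± 4.78 in ENR over 3 sites. At the end of the whole gene, chr13:59133605-59133738, it was 94.1% ± 2.28 and 94.0% ± 2.51 over 7 sites. Low and high blocks alternated in the introns beyond 1 kb from the starts, from 11.4% to 95.2% as means of the 6 libraries.

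The intermediate Ntrk2 sites were also where libraries differed most. Its 37 sites of 20% to 80% averaged 57.3%, 54.9% and 44.5% in STD and 51.0%, 52.4% and 28.0% in ENR, and ENR 3 was the lowest library at 19 of them. The group difference of -8.43 points (exact permutation p = 0.5) went with the low level of ENR 3 over the whole table, and its part in the Ntrk2 result was not tested. In the block chr13:59021999-59022111, all 7 sites were lower in ENR, with 93.2%, 68.5% and 61.4% in STD and 81.7%, 77.3% and 19.8% in ENR, so that only ENR 3 lay below all 3 STD mice. By contrast, the 22 Ntrk2 sites over 80% averaged 91.0% ± 2.42 in STD and 91.6% ± 3.27 in ENR. In Ntrk3, though, the 7 sites over 80% averaged 90.2%, 91.3% and 98.2% in STD and 84.7%, 86.7% and 72.1% in ENR. Those groups did not overlap (exact permutation p = 0.1, the smallest possible). All 44 member sites over 80% averaged 91.5% ± 1.22 in STD and 90.2% ± 3.80 in ENR.

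**Figure D5:**
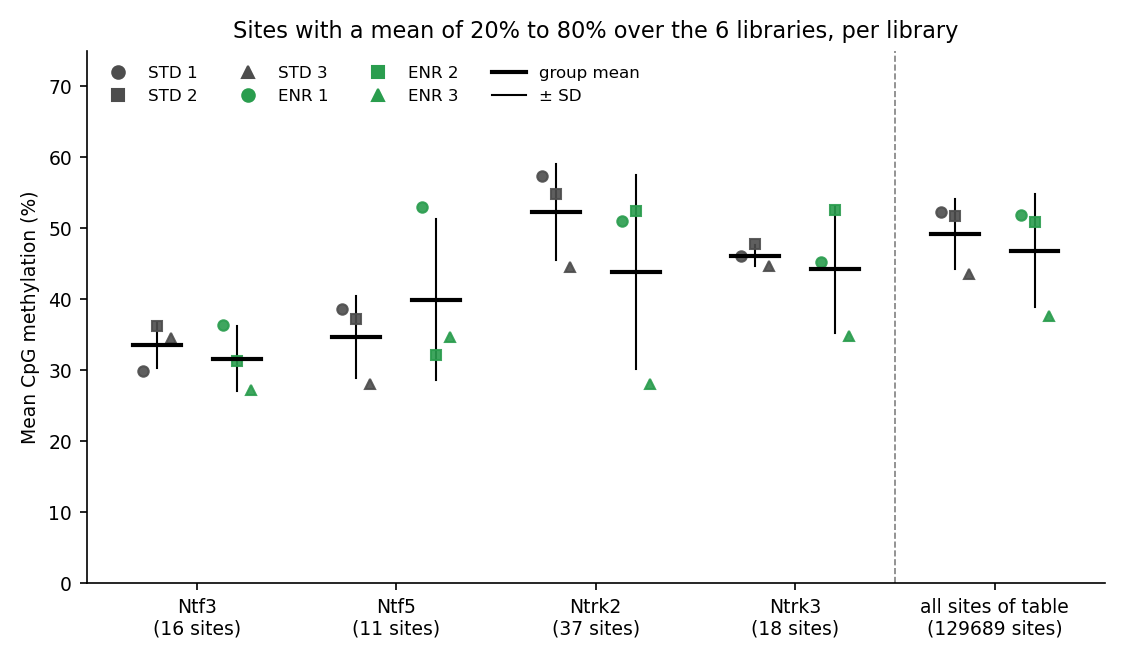
Mean methylation (%) of sites whose mean over the 6 libraries was 20% to 80%, for the 4 genes with more than 10 such sites and, right of the dashed line, for all such sites of the table, with 1 point per library, a bar at the group mean and a line for ± SD (n = 3). ENR 3 is the lowest library in Ntf3, Ntrk2, Ntrk3 and the whole table, reaching 28.0% in Ntrk2, while STD 3 is the lowest in Ntf5.

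Of single Ntrk2 sites, chr13:58812674 read 71.4%, 90.3% and 44.6% in STD and 8.11%, 43.8% and 38.3% in ENR, lower in every ENR mouse by -38.7 points in the mean. Its unadjusted limma p was 0.058 and its adjusted limma p 0.852. The other strand of that CpG averaged 50.6% in STD and 48.7% in ENR, and 6 of the 7 sites within 100 bp were lower in ENR, by -9.11 points on average over the 7. The largest difference with ENR higher and no overlap, at 59074236, was 20.7 points, from 24.2% ± 12.3 to 44.9% ± 7.425, while its other strand averaged 29.6% in STD and 20.5% in ENR. The 30 bases around each follow, to show the CpG read on both strands, with only that CpG in capitals.
Ntrk2 58812674, chr13:58812660-58812689: tccctcgtgctgagCGtgggtctgcttaag
Ntrk2 59074236, chr13:59074221-59074250: atgggtggcctgtgCGgagggcaaagagaa

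Ntrk3, the TrkC gene, was covered mostly around internal starts. A block of 41 sites at chr7:78578590-78579001 averaged 1.45% ± 0.733 in STD and 0.853% ± 0.504 in ENR, the lowest block of the gene. The 2 sites near the start at 78718220 were the exception, with 62.5%, 69.2% and 50% in STD and 30.6%, 63.6% and 13.3% in ENR. They carried the difference of all 50 Ntrk3 sites near starts, which read 3.62%, 3.88% and 3.85% in STD and 1.73%, 3.46% and 2.33% in ENR. Those groups did not overlap and differed by -1.28 points (exact permutation p = 0.1, the smallest possible). The first start of the gene, at its outer end, had 0 covered sites within 1 kb.

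The Ntrk3 intron stretch gave the largest difference among the 52 blocks of 3 or more sites. It read 16.8%, 32.7% and 13.2% in STD and 50.4%, 37.3% and 35.0% in ENR, higher in every ENR mouse and at all 3 sites. The difference of 19.98 points had an unadjusted limma p of 0.053, an adjusted limma p of 1.0 and an exact permutation p of 0.1. Within it, chr7:78603981 averaged 15.8% ± 5.16 in STD and 38.2% ± 9.10 in ENR, with an adjusted limma p of 0.852. The other block with ENR higher and no overlap was also in Ntrk3, at chr7:78568946-78569040, with 4.20% ± 2.22 in STD and 8.12% ± 2.996 in ENR.

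Of the other Ntrk3 sites, chr7:78643594 read 75%, 69.2% and 53.8% in STD and 14.3%, 41.2% and 52.9% in ENR, a difference of -29.9 points without overlap and with an adjusted limma p of 0.852. STD 3 and ENR 3 lay next to each other there.

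Ngfr, which encodes the p75 receptor, was low across its covered length. Its start and upstream block of 28 sites averaged 3.36% ± 0.207 in STD and 4.89% ± 3.76 in ENR, with ENR 2 highest at 8.97%. Its lowest block, chr11:95586153-95586667, averaged 3.09% ± 2.01 and 1.95% ± 1.59, and its highest, chr11:95577745-95577874, 25.1% ± 5.59 and 28.2% ± 6.48. The block with the lowest limma p, chr11:95571579-95571763, read 13.0%, 6.72% and 10.8% in STD and 11.0%, 21.4% and 15.3% in ENR. Its unadjusted limma p was 0.13 and its adjusted limma p 1.0. No Ngfr site had a mean over 80%, and the groups overlapped in all 5 blocks.

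At single Ngfr sites the differences were small or rested on 1 library. Site chr11:95586295 read 5.08%, 23.5% and 2.78% in STD and 0% in each ENR mouse, a difference of -10.5 points with an adjusted limma p of 0.852, while its other strand averaged 0% in STD and 8.18% in ENR. Site 95587600 read 50% in ENR 2 and 0% in the other 5 libraries.

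Beyond those named above, the sites with an unadjusted limma p under 0.05 were Bdnf 109694011 (10.7% in STD, 0.667% in ENR), Ntf3 126166627 (8.25% and 0.444%), Ntrk2 58980117 (86.4% and 65.7%) and Ntrk3 78612617 (100% and 63.3%). They are named because of their values.

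The other genes of neurotrophin signalling were read from a list of 29 genes, which covers nerve growth factor and its receptor, sortilin-family receptors, proteases that process the precursors, and adaptors of the Trk and p75 receptors. All 29 were measured. limma called 0 of them, and 0 reached an unadjusted limma p under 0.05, where 3.86% of all genes did. ENR was lower in 20 and higher in 9, with a median difference of -0.597 points beside -0.192 over all genes. Furin, a protease that cleaves neurotrophin precursors, had the lowest limma p, with 16.0% ± 2.17 in STD and 12.0% ± 2.28 in ENR and an unadjusted limma p of 0.054. Slitrk5, a membrane protein that binds TrkB, averaged 2.37% ± 0.147 and 1.78% ± 0.305 and was the 1 gene of the 29 whose groups did not overlap, where 5.42% of all genes had no overlap with ENR lower. In the other direction, the adaptor gene Grb2 averaged 1.03% ± 0.540 and 2.23% ± 1.13, and Rtn4r, which encodes a receptor that signals with p75, 1.48% ± 0.859 and 2.69% ± 1.12. Their adjusted limma p was 1.0.

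The levels of member sites are given beside those of the whole table, without a test. Means under 20% made up 77.7% of member sites and 70.0% of all sites, means over 80% 7.43% and 15.5%, and means between 14.9% and 14.6%. CCGG surrounded 34.3% of member sites and 29.7% of all sites. CGTCA on either strand held 0.845% and 1.34%, and CACGTG, an E-box that contains a CpG, 0.338% and 0.398%. Island-like sequence, in which 50% or more of the bases around the site were G or C and CpG reached 0.6 of its expected number, held 46.5% of members and 56.3% of all sites.

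The 2 strands of a CpG give separate readings of 1 position and show how exact a single site is. At the 90 member CpGs read on both strands, the strands differed by 6.43 points on average within a library, and mice of 1 group by 7.17 points. At the 10 of these CpGs with a level of 20% to 80% the strands differed by 19.3 points and mice by 22.6 points, and 33.3% of strand differences were over 25 points. Over the table such CpGs differed by 20.6 points between strands and by 18.9 points between mice.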

How the data were processed

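RRBS libraries of 6 mice (3 STD, 3 ENR) were analysed. The authors trimmed reads with Trim Galore and cutadapt, aligned them to mm10 with Bismark, and kept cytosines with at least 10 reads using methylKit (versions 0.4.0, 1.8.1, 0.16.1 and 1.5.2 in the submitters' processing notes). The deposited values are the percent of methylated reads per cytosine and library, with no read numbers, so the precision of a site is unknown and each site has equal weight. Libraries were not normalized. No column of per-library values was left unused.

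Sites were annotated with GENCODE M21 on GRCm38. Gene means covered sites from 1 kb upstream to the gene end. Blocks joined sites at most 200 bp apart, with at least 3 sites. Each site near a Bdnf start went to the nearest start within 1 kb. All sites, blocks and genes that varied were fitted with limma 3.58.1 in R 4.3.3 (lmFit, eBayes with a variance trend) on percentages, with Benjamini-Hochberg adjustment over each whole table. A site or block call needed an adjusted p under 0.05 and a difference over 25 points. The study tested read numbers, which percentages do not allow. With its test the study reported differentially methylated CpGs between these ENR and STD mice, and it named Ntf3 among the genes concerned. The 0 calls here come from a different test. Single values were compared by two-sided exact permutation tests, and values are mean ± SD over mice.

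The members and gene lists were chosen with earlier results of these data known. Named were all 6 genes and every Bdnf start with a site. Per gene and direction, the site with the largest difference among those without overlap was named, and the largest difference overall where fewer than 2 existed. The highest, the lowest and the lowest-p block were named, or all blocks where a gene had fewer than 3. From the list of signalling genes, the 2 with the lowest p in each direction were named. Blocks and sites outside this rule were chosen after their values were seen. Alternatives changed the scale, variance model, normalization, windows, limits, strands and libraries.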

Additional observations from a re-analysis of the deposited data

How the results depend on the processing

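The limma calls at member sites, member blocks and signalling genes stayed at 0 under every alternative run for each. All 3 were run on the arcsine scale, with the replicate block, with each library left out and, added after seeing the data, without both libraries numbered 3. Sites were also run without the variance trend, with quantile normalization and with averaged strands, and blocks as 1 kb tiles and with joining within 100 bp. Counts at an unadjusted limma p under 0.05 were less steady. Against 5 member sites they were 12 on the arcsine scale, 14 without the trend, 10 without both libraries numbered 3, and up to 10 with 1 library left out (ENR 3). Against 1 block they were 2 with joining within 100 bp, with the replicate block and without both libraries numbered 3, and up to 4 with 1 library left out (ENR 3). Against 0 signalling genes there were 1 without both libraries numbered 3 and up to 2 with 1 library left out (ENR 1).

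The 10 sites over 25 points became 22 at a limit of 20, 0 at 40 and 19 without both libraries numbered 3, and ranged from 13 to 18 with 1 library left out (16 without ENR 1, and 18 without ENR 2 or without ENR 3). Exact p cannot go under 0.1, so no gene could pass. Several differences changed sign, and why was not tested. Bdnf was 0.968 points over 1 kb from starts, 0.248 after quantile normalization and 0.0152 without both libraries numbered 3. Ntrk2 was 0.0564 within 1 kb of starts, Ntrk3 0.451 without both libraries numbered 3, and Ngfr -0.663 with each block counted once and -0.0327 over 1 kb from starts. With 1 library left out, differences ran from -0.373 to 0.0648 in Bdnf, -0.950 to 3.46 in Ntf5, -4.37 to 0.344 in Ntrk2, -2.43 to 0.362 in Ntrk3 and -0.764 to 1.59 in Ngfr. The Ntf3 difference kept its sign in each alternative but ran from -2.15 without ENR 1 to -0.316 without ENR 3, and was -0.308 after quantile normalization, -2.48 with each block counted once and -2.73 at sites of 10% to 90%. There, Bdnf differed by -1.65 points, Ntf5 by 5.32, Ntrk2 by -5.50, Ntrk3 by -3.01 and Ngfr by 5.98.

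At Bdnf starts, the difference within 500 bp was 2.48 at start 1 (0.596 within 1 kb), -0.806 at start 3 and 0.152 at start 7, which was 0.0603 without both libraries numbered 3. With 1 library left out it ran from -0.852 to 1.55 at start 1, -0.288 to 0.588 at start 3, -0.826 to 0.0620 at start 5 and -0.728 to 0.112 at start 7, while starts 2, 4 and 6 kept their sign. Start 2 ran from -1.44 without ENR 1 to -0.457 without ENR 2, and start 6 from -0.975 without STD 2 to -0.405 without STD 3. Start 4 ran from 0.848 without ENR 3 to 2.31 without ENR 1, and was 1.05 without both libraries numbered 3. Of the named blocks, chr6:126122742-126122861 of Ntf3 ran from -2.18 to 3.70, and the Ntf5 blocks from -0.370 to 2.03 at the start and from -2.05 to 8.04 in the intron. The difference at Ngfr 95587600 was 0 without ENR 2. The Ntrk2 block that read 0% in every library had no difference, and the other named sites and blocks kept their sign. The Bdnf coding block went from 4.32 to 0.731 without STD 1, the Ngfr blocks from 3.11 to 0.0563 without STD 3, from -1.13 to -0.0358 without STD 2 and from 5.73 to 2.96 without ENR 2, and the Ntf3 block with the lowest p from -18.9 to -11.3 without ENR 2. Ntf5 45415041 went from 31.2 to 16.6 without STD 3, Ntrk3 78643594 from -29.9 to -19.0 without ENR 1, and Ngfr 95586295 from -10.5 to -3.93 without STD 2.

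With the replicate block limma called 0 sites, blocks and genes. Libraries of the same number correlated at 0.0552, 0.0319 and 0.125 in their deviations from the group means, and STD 2 correlated best with ENR 1, at 0.0410, so the numbers were not taken as pairs. Percentages without read numbers, 3 mice per group and a smallest exact p of 0.1 limit what can be called.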
